A study of Mus musculus with 50 samples.

Results

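Developing mouse oligodendrocytes were exposed to interferon-gamma (IFN-γ) for 24 h and compared with untreated cells of the same hour, and 10 of the series' 50 RNA-seq libraries make this comparison. Libraries were assigned by the sample labels, as every library at 24 h that had received IFN-γ at 200 U/ml or nothing. In them, 3 treated and 3 untreated libraries came from Nrf2 -/- cells, 2 treated and 2 untreated libraries came from wild-type cells, and all cells had the C57BL/6 background. Precursors of oligodendrocytes were immunopanned from the cortex of 6-day-old pups, passaged 2 times in proliferation medium and left to differentiate for 12 to 14 h, and plates were then assigned to a treatment at random. The labels name the tissue as whole brain and the cells as developing oligodendrocytes; they do not say whether the libraries of a group came from separate animals or cultures, so the p-values below measure the spread between libraries, which may be technical. Thapsigargin was not used at this hour.

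IFN-γ is a cytokine of T cells and natural killer cells. It binds a receptor made of IFNGR1 and IFNGR2, whose kinases JAK1 and JAK2 start a signal to the nucleus that ends at a short DNA element called GAS. Among the genes induced are transcription factors of the IRF family, which bind a further element and carry the response to antigen presentation, GTPases that act on intracellular pathogens and antiviral proteins. Oligodendrocytes make myelin, a membrane rich in cholesterol and galactolipids, and their precursors stop dividing as they begin to make it.

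The short promoter stretches below show both kinds of element in genes on which the results turn. They run 5′ to 3′ on the strand of the gene, come from RefSeq (build GRCm38.p6) and end at or before the annotated start of transcription. Capitals mark a match to TTCNNNGAA (the GAS letters), to GAAANNGAA or its reverse TTCNNTTTC (the letters of an IRF element), or, in Hmgcs1 alone, to TCACNCCAC (a sterol element, bound by SREBP factors); both strands were searched, and adjoining matches can share bases.
Irf1 (chr11:53769894-53769962, plus strand, GAS): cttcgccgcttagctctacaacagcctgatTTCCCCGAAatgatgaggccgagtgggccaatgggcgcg
Irf8 (chr8:120736157-120736243, plus strand, GAS at both places): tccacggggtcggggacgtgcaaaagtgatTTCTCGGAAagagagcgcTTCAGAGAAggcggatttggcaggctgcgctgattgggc
Psmb8 (chr17:34198068-34198136, plus strand, GAS): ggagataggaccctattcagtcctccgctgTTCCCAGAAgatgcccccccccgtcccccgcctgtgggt
Igtp (chr11:58199481-58199555, plus strand, GAS then IRF element): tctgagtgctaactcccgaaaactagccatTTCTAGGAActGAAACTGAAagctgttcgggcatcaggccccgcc
Tgtp2 (chr11:49064244-49064323, minus strand, GAS then IRF element): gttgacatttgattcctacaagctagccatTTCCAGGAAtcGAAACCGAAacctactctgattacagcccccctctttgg
Gbp2 (chr3:142620575-142620643, plus strand, IRF element): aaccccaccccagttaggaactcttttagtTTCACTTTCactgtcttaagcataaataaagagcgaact
Gbp3 (chr3:142559970-142560043, plus strand, overlapping IRF elements): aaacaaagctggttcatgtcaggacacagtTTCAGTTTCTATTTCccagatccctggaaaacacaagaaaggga
B2m (chr2:122147518-122147586, plus strand, IRF element): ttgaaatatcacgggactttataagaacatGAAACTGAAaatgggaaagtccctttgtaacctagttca
Ifit1 (chr19:34640750-34640843, plus strand, IRF elements): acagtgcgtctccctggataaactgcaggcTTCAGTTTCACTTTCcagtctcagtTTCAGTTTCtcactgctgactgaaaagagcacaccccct
Isg15 (chr4:156200846-156200926, minus strand, IRF elements): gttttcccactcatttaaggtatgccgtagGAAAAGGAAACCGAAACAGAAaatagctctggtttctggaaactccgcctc
Hmgcs1 (chr13:119690184-119690252, plus strand, sterol element): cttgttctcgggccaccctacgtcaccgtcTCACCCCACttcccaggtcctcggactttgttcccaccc
In Igtp and in Tgtp2 the GAS letters are followed by an IRF element after 2 bases, and the same arrangement stands in Tgtp1. Over all 32851 promoter windows of the RefSeq table, each covering 250 bases before and 50 after a start, 8.3% of windows had a GAS match and 8.6% an IRF element match. Among the 350 genes that rose by more than 3 on the log2 scale, 238 had a window; 37 of these (15.5%) held GAS letters and 86 (36.1%) an IRF element. The IRF element letters stood in 4 of 4 windows of guanylate-binding protein genes, in 6 of 7 of immunity-related GTPase genes and in 12 of 20 of antiviral genes. They stood in 5 of 17 windows of class I genes, in 3 of 16 of the receptor, JAK-STAT and IRF list, in 1 of 5 of the PARP9 and DTX3L list, and in 0 of 4 class II and 0 of 3 complement windows. Of all genes that rose, 11% of those with a window held them, against 8.5% of tested genes. Of 17 cholesterol synthesis genes with a window, 1 (Hmgcs1) held the sterol letters, which 1.2% of all windows did. A match describes letters and does not show binding.

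Libraries at 24 h held 34.4 to 54.7 M counts; the deepest was the first treated Nrf2 -/- library, and the other 9 held at most 37.5 M. Nfe2l2, the gene of NRF2, stood at 0.201 to 0.667 CPM (counts relative to the library's total, after TMM scaling) in the 6 Nrf2 -/- libraries and at 20.7 to 28.7 CPM in the 4 wild-type libraries, as the titles say. One untreated library stood apart: Nrf2 -/- replicate 2 carried low amounts of interferon-induced transcripts. Over 24 genes with a treated mean of at least 50 CPM and next to nothing in the other untreated libraries, its level had a median of 0.485% of the treated mean (quartiles 0.355% and 0.638%, range 0.0854% to 0.916%). The genes were chosen for their near-absence in the other 4 untreated libraries, so the low level there is no comparison. The origin of these transcripts was not tested. Several results on genes near silence are therefore given also without that library, named below as the untreated library with interferon transcripts.

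**Figure D1:**
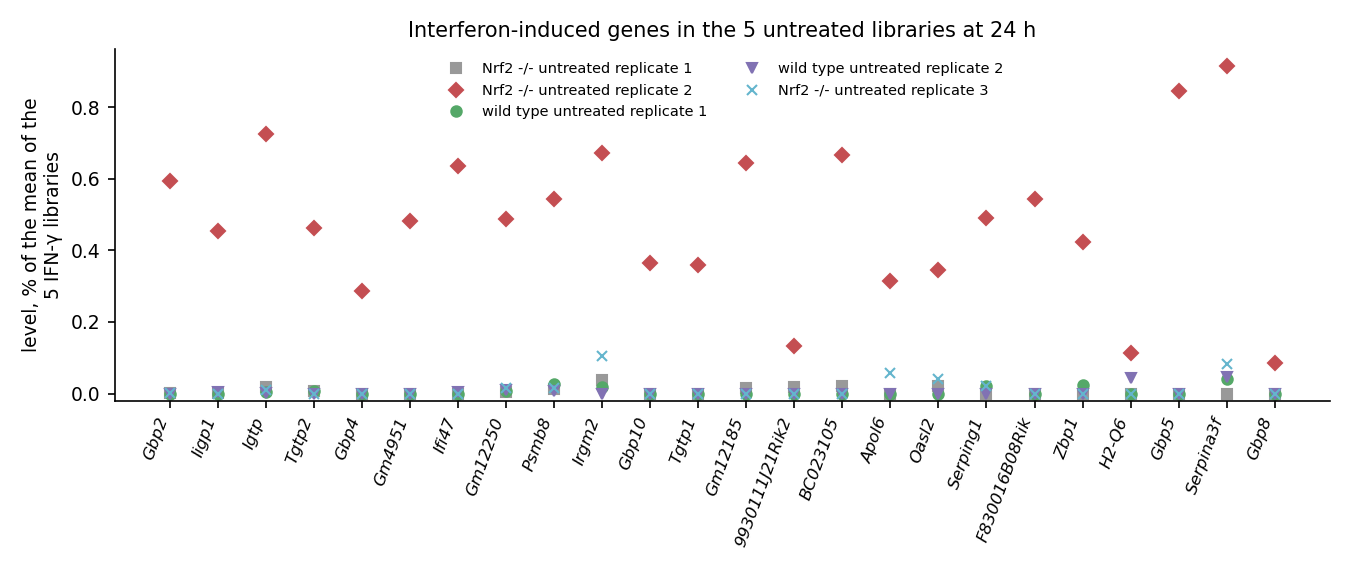
Level of 24 interferon-induced genes in each of the 5 untreated libraries at 24 h, as a percentage of the mean of the 5 IFN-γ libraries (y axis, linear; genes along the x axis). Nrf2 -/- replicate 2 sits between 0.0854% and 0.916%; the other 4 libraries lie at 0.105% or lower, as the choice of genes required low values there.

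Across the transcriptome, 8612 of 14865 tested genes (57.9%) differed between treated and untreated libraries at a Benjamini-Hochberg adjusted p under 0.05 (edgeR quasi-likelihood test with genotype as a term): 4453 (30%) rose and 4159 (28%) fell. Most changes were small, with a median of 0.66 on the log2 scale for genes that rose and -0.44 for genes that fell, against 0.02 over all tested genes. Large changes were mainly rises: 350 genes rose by more than 3 on the log2 scale and 39 fell by as much. With 57.9% of genes past the threshold, the number of genes of a list that pass it says little alone, and each list is described by its direction and size.
Without the untreated library with interferon transcripts, 7955 of the 8612 calls stood in the same direction. In wild-type libraries alone (2 against 2), 5886 of the 8402 called genes that could be tested were called in the same direction, and in Nrf2 -/- libraries alone (3 against 3), 6914 of 8421 were. These libraries also made the pooled calls, so the shared direction is no independent support.

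**Figure D2:**
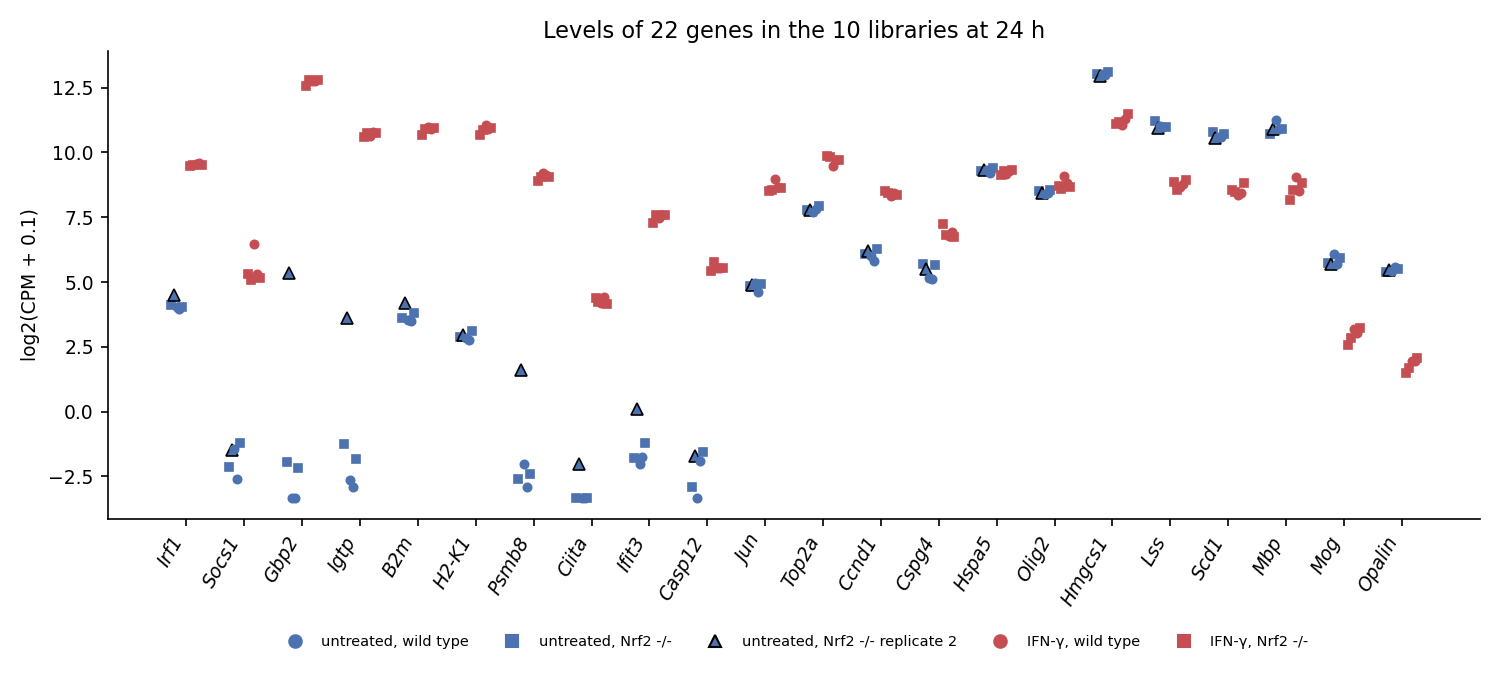
Level of 22 genes in the 10 libraries at 24 h, as log2(CPM + 0.1) on the y axis; each point is 1 library, coloured by treatment and shaped by genotype, with a triangle for untreated Nrf2 -/- replicate 2. Interferon genes on the left are separated by treatment over a wide range, Hspa5 overlaps between the arms, and the genes of sterol synthesis and myelin on the right are lower in every treated library.

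Of 20 tested genes of the receptor, JAK-STAT and IRF list (21 in the list), 14 rose, Ifngr1 fell and 5 did not pass the threshold (Ifngr2, Irf2, Irf5, Ptpn2 and Pias1), with a median log2 fold of 1.07. The factors Irf1 and Irf8 and the feedback inhibitor Socs1 were among those that rose, and the kinase Jak2 rose less than 2-fold. For the values that follow, the 5 libraries of an arm are listed as Nrf2 -/- replicates 1, 2 and 3 and then wild-type replicates 1 and 2.
Irf1, a transcription factor that binds the IRF element, stood at 715, 742, 740, 745 and 777 CPM after IFN-γ and at 17.4, 22.6, 16.3, 16.3 and 15.3 CPM untreated. Every treated library lay far above every untreated one, and the log2 fold was 5.43 ± 0.10 (SE; edgeR adjusted p = 5.77e-15). Irf8, a factor better known from myeloid cells, was at 250, 260, 271, 294 and 279 CPM against 1.18, 2.93, 0.715, 0.891 and 0.395 CPM. The highest untreated value of Irf8 belongs to the untreated library with interferon transcripts, and its log2 fold was 7.80 ± 0.37 with that library and 8.43 without it.
Socs1, which blocks JAK kinases, was at 39.2, 33.8, 35.3, 87.3 and 39.3 CPM after IFN-γ and at 0.128, 0.261, 0.328, 0.267 and 0.066 CPM untreated (log2 fold 7.76 ± 0.38, edgeR adjusted p = 2.43e-07). Wild-type replicate 1 was more than 2 times as high as the other treated libraries, and no library of one arm reached the other. Socs3, another inhibitor of the family, rose by 1.08 ± 0.08. Usp18, a protease that also restrains interferon receptors, rose by 7.87 ± 0.14.
Jak2, a receptor kinase, lay at 281, 293, 270, 249 and 274 CPM against 152, 153, 160, 142 and 150 CPM, without overlap (0.88 ± 0.05 on the log2 scale). Ifngr1, the ligand-binding chain, fell by 0.16 ± 0.05 (edgeR adjusted p = 0.0175) with treated libraries at 23.5 to 25.5 CPM and untreated ones at 26.5 to 29.6 CPM; without the untreated library with interferon transcripts, its adjusted p was 0.0554. Ifngr2, the second chain, overlapped between the arms (-0.06 ± 0.08, edgeR adjusted p = 0.532).

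Guanylate-binding proteins (GBPs) and immunity-related GTPases (IRGs), which assemble on vacuoles that hold intracellular pathogens, went from near silence to abundant messages. The 11 GBP genes together took 11200 to 12400 CPM in treated libraries, 1.12% to 1.24% of the TMM-scaled total of gene counts. They took 34.3 to 37.0 CPM in 4 untreated libraries and 99.1 CPM in the untreated library with interferon transcripts. All 10 tested GBP genes and all 8 tested IRG genes rose. Genes this low in untreated cells pass the filter on counts only through the treated libraries, so these counts are no support in themselves; fitted folds of genes near 0 in untreated cells depend on the prior count and on single libraries wherever they are printed, and bounds are given for some genes with no count.
Gbp2 stood at 6055, 7195, 7144, 6846 and 6896 CPM after IFN-γ. In untreated libraries it stood at 0.16, 40.6, 0.119, 0 and 0 CPM, with only replicate 2 of Nrf2 -/- above 1 CPM. Gbp3 was already present in untreated cells and went from 13.1, 21.6, 14.1, 15.2 and 13.2 CPM to 1343, 1509, 1530, 1356 and 1519 CPM (log2 fold 6.58 ± 0.15, edgeR adjusted p = 8.51e-12). Over the 4 other untreated libraries, Gbp4 had no count and was at least 62800-fold higher after treatment (bound set by 3 counts over those libraries together), Gbp10 at least 10900-fold and Gbp8 at least 2920-fold.
Among the IRGs, Igtp was at 1555, 1710, 1726, 1602 and 1749 CPM after treatment and at 0.319, 12.1, 0.179, 0.059 and 0.033 CPM untreated. The second of these untreated values again stands apart from the rest. Irgm1, a regulator of the other IRGs, was also present in untreated cells, at 48.6, 68.6, 52.2, 44.5 and 46.2 CPM. In treated cells it stood at 2722, 3061, 3104, 2853 and 3156 CPM (log2 fold 5.87 ± 0.12, edgeR adjusted p = 2.24e-14). Tgtp2 went from at most 7.10 CPM to 1438 to 1603 CPM. Without the untreated library with interferon transcripts, and with genes at 0 set to their bound, the median log2 fold was 11.17 for the 10 GBPs and 13.42 for the 8 IRGs. GBP, IRG and class I genes come in near-identical copies, and the split of reads among the copies is uncertain.

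Genes of antigen presentation rose at each step, from the cutting of peptides to their display. All 21 tested genes of the MHC class I list rose (median log2 fold 7.17), while the 15 genes of the constitutive proteasome list had a median of 0.08, with 7 of 15 past the threshold and none of them above 0.37.
H2-K1, a class I heavy chain, was at 1631, 1846, 1957, 2133 and 1905 CPM after IFN-γ and at 7.27, 7.68, 8.58, 6.98 and 6.64 CPM untreated (log2 fold 8.02 ± 0.10, edgeR adjusted p = 8.4e-17). B2m, the light chain, went from 12.0, 18.3, 13.9, 11.5 and 11.3 CPM to 1619, 1920, 1972, 2016 and 1931 CPM (7.17 ± 0.15). In both genes the arms were separated by a wide gap, and the first Nrf2 -/- replicate was the lowest of the treated libraries. Tap1, which pumps peptides into the endoplasmic reticulum, rose by 7.29 ± 0.20 (7.48 without the untreated library with interferon transcripts), and Nlrc5, the transactivator of class I genes, by 6.45 ± 0.19.
Psmb8, the inducible proteasome subunit, stood at 474, 534, 530, 587 and 564 CPM against 0.064, 2.93, 0.089, 0.149 and 0.033 CPM; its log2 fold was 9.66 ± 0.70 with all libraries and 12.60 without the untreated library with interferon transcripts. Psmb5, the constitutive subunit that Psmb8 replaces, overlapped between the arms, at 115, 143, 142, 156 and 147 CPM against 98.7, 110, 121, 121 and 103 CPM (0.37 ± 0.07, edgeR adjusted p = 0.000405).
All 7 tested genes of the class II list (11 in the list) also rose. The summed level of the list was 88.8 to 104 CPM in treated libraries and 8.88 to 11.5 CPM in untreated ones. Ciita, the master regulator of class II genes, had no count in 4 untreated libraries and 0.145 CPM in the untreated library with interferon transcripts, and stood at 20.8, 18.7, 17.6, 18.1 and 21.1 CPM after IFN-γ, at least 828-fold over the bound of those 4 libraries. H2-Eb1, a class II chain, rose from 0.191, 0.232, 0.208, 0.178 and 0.428 CPM to 25.4, 28.4, 25.2, 22.1 and 28.5 CPM (6.73 ± 0.16), and H2-Ab1 rose by 3.70 ± 0.14. In H2-Eb1 the untreated library with interferon transcripts lay within the range of the others. With genes that had no count in the other 4 untreated libraries set to their bound, and without the fifth, list medians were 7.23 for class I, 6.20 for class II, 6.99 for antiviral genes, 4.77 for sensors, 3.09 for chemokines, 4.64 for complement and 3.51 for metabolic enzymes.

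Antiviral and sensing genes, most of which are also induced by type I interferon, rose as a group. All 25 tested genes of the antiviral list rose (29 in the list; median log2 fold 6.78), as did 9 of 10 tested nucleic acid sensors, with Aim2 falling, and 7 of 8 genes of the PARP9 and DTX3L list, with Parp1 falling.
Ifit3, a gene of the antiviral list, was at 157, 191, 195, 179 and 191 CPM against 0.191, 0.985, 0.328, 0.149 and 0.197 CPM (8.93 ± 0.30, and 9.72 without the untreated library with interferon transcripts). Isg15, a ubiquitin-like modifier, was at 19.4, 15.6, 16, 19.9 and 16.8 CPM against 0.064, 0.029, 0.089, 0 and 0.132 CPM (8.11 ± 0.23, edgeR adjusted p = 1.09e-13). No library of one arm came near the other in either gene. Zbp1, a sensor of Z-form nucleic acid that can start necroptosis, stood at 105 to 135 CPM after IFN-γ and at 0 to 0.03 CPM in 4 untreated libraries. Ddx58, the RNA sensor RIG-I, rose by 6.00 ± 0.12 and Parp14, an ADP-ribosyltransferase, by 8.93 ± 0.61 (10.85 without that untreated library).
Of the genes for signals to other cells that could be tested, all but 1 rose. Those near silence in untreated cells, Cxcl10 among them, passed the filter on counts only through the treated libraries. Counts of such genes are therefore no support in themselves. The same holds for genes of that kind in the class I, class II, antiviral, sensor, complement and metabolic enzyme lists. Of 12 tested chemokine, cytokine and adhesion genes (21 in the list), 11 rose and Ccl5 did not pass the threshold; the others, Ccl2 and Cxcl9 among them, were too low to test. Cd274, the checkpoint ligand PD-L1, rose from 0.446, 1.04, 0.208, 0.743 and 0.691 CPM to 91.7, 85.8, 88.9, 87.5 and 86.8 CPM (7.15 ± 0.20, edgeR adjusted p = 1.91e-10). All treated libraries of Cd274 lay close together. Cxcl10, a T cell attractant, reached 0.843 to 1.73 CPM from no count in any untreated library. Of 7 tested complement genes, 6 rose: Serping1, the C1 inhibitor, stood at 143 to 150 CPM against at most 0.725 CPM, and C4b rose by 4.41 ± 0.12. Of 8 tested interferon-induced metabolic enzymes, 5 rose; Wars, the tryptophanyl-tRNA synthetase, rose by 3.13 ± 0.08, while Nos2, Gch1 and Sod2 did not pass the threshold. None of 11 tested mitochondrially encoded genes passed it.

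**Figure D3:**
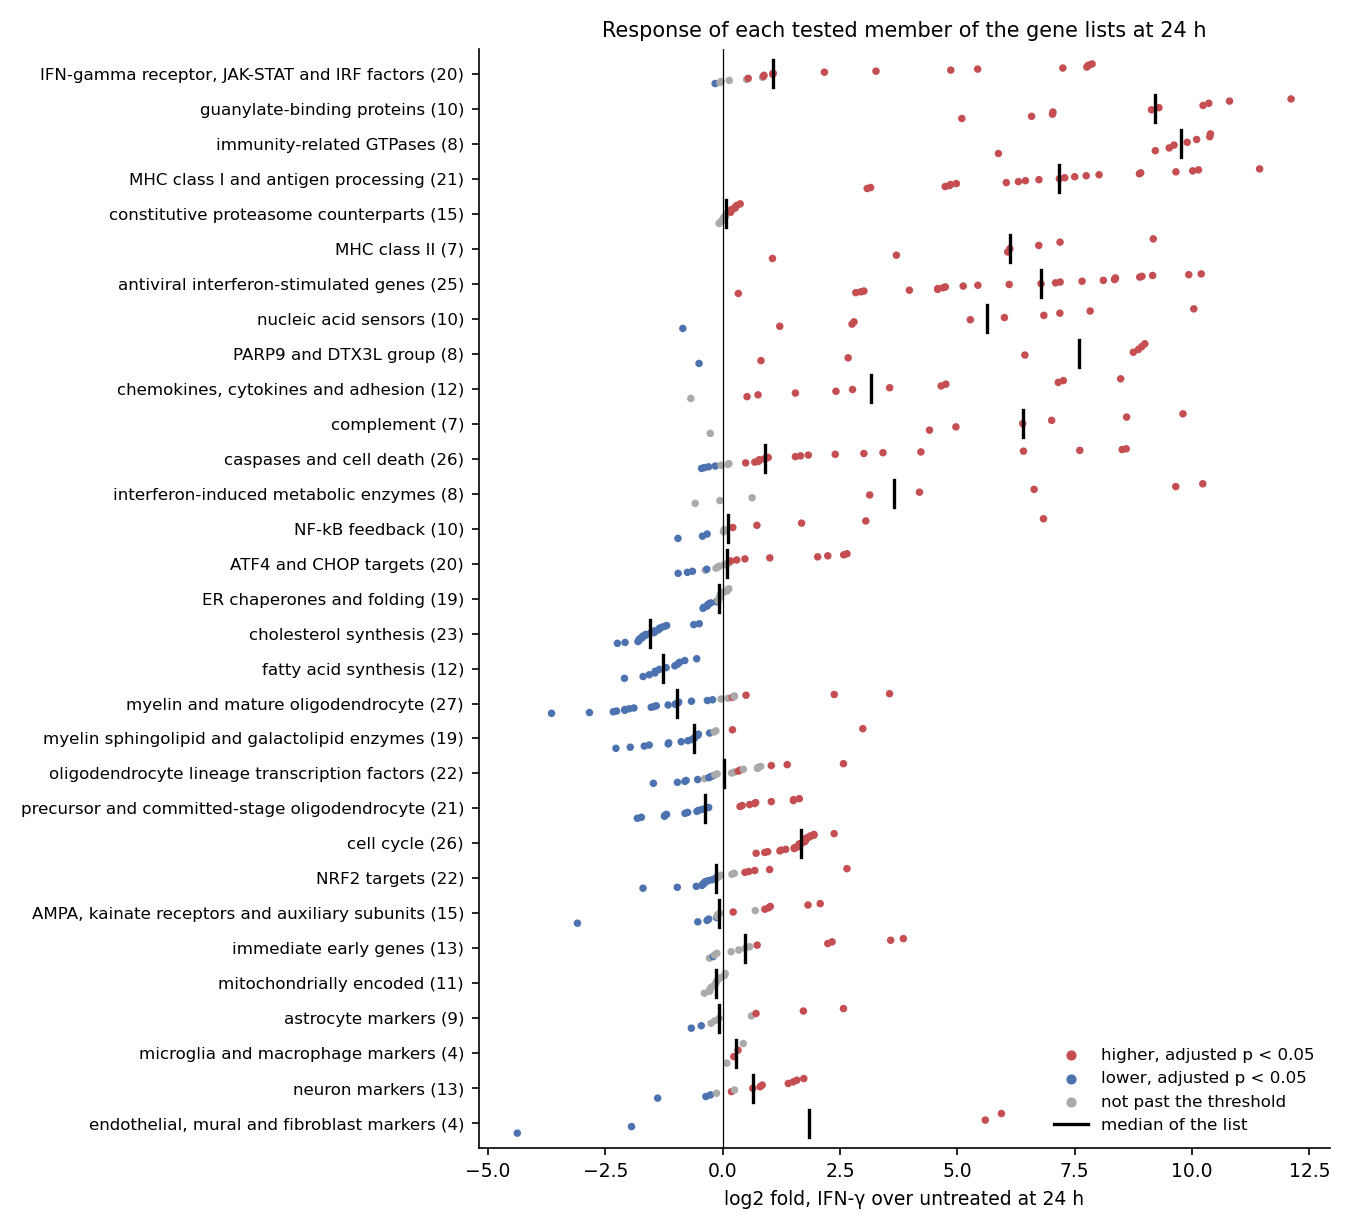
Log2 fold of each tested member of the gene lists, IFN-γ over untreated at 24 h (x axis; 1 row per list with the number of tested members, 1 point per gene, black bars at list medians). Interferon lists lie to the right, cell cycle genes lie between 0.71 and 2.37, and cholesterol and fatty acid synthesis lie wholly below 0.

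Genes of cell death and inflammatory control changed in both directions. Of 26 tested genes of the caspase and death list, 19 rose, 4 fell (Casp9, Bcl2l1 and Mdm2 among them) and 3 did not pass the threshold, with a median of 0.90. The largest rises were in inflammatory caspases and pyroptosis: Casp12 went from at most 0.238 CPM to 42.5, 54.5, 46.1, 46.2 and 46.3 CPM (8.51 ± 0.23), Casp1 stood at 11.1 to 13.9 CPM against at most 0.087 CPM, and Gsdmd, whose product forms pores, stood at 1.42 to 2.08 CPM against at most 0.029 CPM. Mlkl, the executor of necroptosis, rose by 3.42 ± 0.12, the death receptor gene Fas by 4.22 ± 0.15, and Bcl2, which opposes apoptosis, by 1.55 ± 0.10. Casp8, at 0.268 to 0.428 CPM against 0 to 0.268 CPM, passed the threshold with all libraries (edgeR adjusted p = 0.0283) and lost it when any of 6 single libraries was left out (adjusted p 0.0564 to 0.0729).
The genes of the stress branches did not move as blocks, but the chaperone and the ATF4 and CHOP lists summed lower in every treated library. Of 19 tested chaperone and folding genes of the endoplasmic reticulum, none rose and 7 fell, and the median was -0.08. Their summed level was 4820 to 5340 CPM after IFN-γ and 5550 to 5960 CPM untreated. Hspa5, the central chaperone BiP, was at 568, 623, 649, 576 and 629 CPM against 624, 642, 684, 633 and 594 CPM (-0.03 ± 0.05, edgeR adjusted p = 0.62), with the arms overlapping. Of 20 tested ATF4 and CHOP targets, 8 rose, 4 fell and 8 did not pass the threshold. The list summed to 1360 to 1420 CPM after IFN-γ and 1810 to 1920 CPM untreated. Atf4 itself fell by 0.64 ± 0.05, Ddit3 (CHOP) overlapped between the arms (0.13 ± 0.08), and Trib3, a pseudokinase of that pathway, rose by 2.02 ± 0.29 from at most 0.67 CPM.
Of 13 tested immediate early genes, 5 rose and Fos fell (by 0.20 ± 0.06). Jun, a component of AP-1, was at 364, 376, 392, 502 and 406 CPM against 28.7, 29.1, 30.3, 30.9 and 24.6 CPM, the largest rise of that list (3.85 ± 0.09, edgeR adjusted p = 1e-13). Of 22 tested NRF2 target genes, 5 rose and 12 fell, among them Hmox1, heme oxygenase, which rose by 0.68 ± 0.13, and Me1, malic enzyme, which fell by 1.70 ± 0.08. Of 10 tested NF-kB feedback genes, 5 rose, led by Tnfaip2 and Tnfaip3 (3.05 ± 0.18), and 3 fell.

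Treated libraries held more message of the cell division machinery and of several precursor genes. All 26 genes of the cell cycle list rose, between 0.71 and 2.37 on the log2 scale (median 1.66, against 0.02 over all tested genes), and their summed level was 3190 to 3940 CPM after IFN-γ and 1080 to 1300 CPM untreated. In bulk RNA, a change in the share of dividing cells and a change in message per cell cannot be told apart, here and for the lineage genes below.
Ccnd1, the cyclin that links growth signals to the cell cycle, was at 367, 348, 330, 323 and 345 CPM against 68.1, 72.3, 77.4, 63.8 and 56.3 CPM (2.37 ± 0.06, edgeR adjusted p = 3e-14). Top2a, the topoisomerase of mitotic chromosomes, was at 941, 916, 845, 710 and 836 CPM against 222, 222, 247, 208 and 224 CPM (1.94 ± 0.06). Every treated library was above every untreated one in both genes, with wild-type replicate 1 the lowest of the treated libraries. Cdk1, the mitotic kinase, rose by 1.71 ± 0.07 and Mki67, the Ki-67 antigen, by 1.34 ± 0.11.
Of the 21 precursor and committed-stage genes, 9 rose and 12 fell, with both precursor and committed-stage genes among those that fell; their summed level was 8810 to 9590 CPM treated and 13300 to 14400 CPM untreated. Pdgfra, the growth factor receptor of precursors, was at 518, 428, 364, 339 and 436 CPM against 209, 221, 225, 183 and 198 CPM (1.04 ± 0.09, edgeR adjusted p = 5.6e-07). Cspg4, the NG2 proteoglycan, was at 151, 111, 106, 111 and 121 CPM against 52.3, 45.1, 50.6, 35.2 and 34.6 CPM (1.51 ± 0.11). In both genes the first Nrf2 -/- replicate was the highest treated library and the arms did not overlap. Ptprz1 and Cspg5, also expressed by precursors, rose by 1.51 ± 0.14 and 1.63 ± 0.07. The precursor proteoglycans Vcan and Bcan were among the 12 that fell. So were genes of cells committed to differentiate: Enpp6 fell by 1.73 ± 0.08, Bcas1 by 0.75 ± 0.07 and Gpr17, a receptor of the same stage, by 0.52 ± 0.06.

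Genes of sterol and fatty acid synthesis fell together. All 23 tested cholesterol genes fell, between -2.24 and -0.50 on the log2 scale (median -1.55), and all 12 fatty acid genes fell (median -1.28). Their summed levels went from 23700 to 25900 CPM to 7270 to 8870 CPM for cholesterol genes, and from 15100 to 18200 CPM to 5200 to 6140 CPM for fatty acid genes.
Hmgcs1, which makes the precursor of mevalonate and whose sterol element is printed above, was at 2169, 2285, 2832, 2151 and 2477 CPM after IFN-γ and at 8391, 7991, 8814, 8340 and 8122 CPM untreated (-1.78 ± 0.08, edgeR adjusted p = 5.3e-11). Lss, lanosterol synthase, was at 461, 378, 488, 405 and 438 CPM against 2363, 1988, 2045, 2063 and 2003 CPM, the steepest fall of the list (-2.24 ± 0.08). Nrf2 -/- replicate 3 was the highest of the treated libraries in both genes, and was still below every untreated library.
Srebf2, a transcription factor of the pathway, fell by 0.62 ± 0.06. Scd1, a desaturase, was at 372, 352, 450, 329 and 351 CPM against 1769, 1511, 1669, 1547 and 1545 CPM (-2.09 ± 0.08), and Fasn, fatty acid synthase, fell by 1.44 ± 0.07. In each of these genes the arms were apart.

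Most myelin genes were lower as well. Of 27 tested myelin and mature oligodendrocyte genes, 19 fell, 4 rose (Car2, Cryab, Enpp2 and Anln) and 4 did not pass the threshold, with a median of -0.98; the summed level of the list was 7940 to 10000 CPM after IFN-γ and 21600 to 26000 CPM untreated.
Mbp, myelin basic protein, was at 291, 375, 452, 531 and 365 CPM against 1665, 1938, 1903, 2424 and 1906 CPM (-2.26 ± 0.14, edgeR adjusted p = 1.2e-07). The first Nrf2 -/- replicate was the lowest library of each arm, and the arms did not overlap.
Mog, a surface protein of finished myelin, was at 5.91, 7.04, 9.37, 8.98 and 8.15 CPM against 53.2, 52.1, 60.5, 67.6 and 52.4 CPM (-2.84 ± 0.11). Opalin, a membrane protein of mature oligodendrocytes, was at 2.70, 3.09, 4.11, 3.75 and 3.81 CPM against 41.8, 43.5, 45.4, 42.4 and 47.3 CPM (-3.65 ± 0.10, edgeR adjusted p = 6.79e-14). Cnp, an enzyme of the myelin sheath, fell by 0.98 ± 0.07.
Of 19 enzymes of sphingolipid and galactolipid synthesis, 15 fell and 2 rose. Ugt8a, which makes the galactolipid of myelin, fell by 1.67 ± 0.07, from 3381 to 3796 CPM to 943 to 1258 CPM. Cers6, a ceramide synthase, went the other way, from 8.76 to 14.5 CPM to 67.2 to 109 CPM (2.99 ± 0.18). Car2, carbonic anhydrase, rose with it, from 0.551 to 0.891 CPM to 5.48 to 9.13 CPM (3.56 ± 0.16).
Lineage transcription factors gave no common direction: 5 of 22 rose, 8 fell and 9 did not pass the threshold (median 0.03). Myrf, which drives myelin genes, was at 243, 167, 198, 204 and 186 CPM against 451, 342, 296, 326 and 363 CPM (-0.81 ± 0.13), and Sox10 fell by 0.30 ± 0.08 with overlapping arms. Olig1 rose by 1.04 ± 0.09 and Olig2 by 0.33 ± 0.07, both without overlap. Sox9, found in early glial precursors and astrocytes, rose by 2.57 ± 0.21, from 1.49 to 3.03 CPM to 10 to 19.2 CPM.

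Among the 12 steepest falls with at least 5 CPM in untreated cells, Opalin was the sole gene of the myelin list. Elmod1, a GTPase-activating protein, was at 0.982, 1.13, 1.00, 1.37 and 1.11 CPM against 19.7, 20.4, 23, 26.8 and 22.1 CPM (-4.30 ± 0.10, edgeR adjusted p = 1.35e-14). Every treated library lay far below every untreated one.
Gng4, a G protein subunit, fell by 4.42 ± 0.11, Kif26a, a kinesin family member, by 3.87 ± 0.08 and Ddc, aromatic amino acid decarboxylase, by 3.66 ± 0.15. Lpar1, a lysophosphatidic acid receptor of differentiating oligodendrocytes, fell by 3.69 ± 0.18, from 73.3 to 106 CPM to 4.79 to 8.74 CPM. Plch2, Clvs1, Lama3, Fhl2 and Ptprb fell, with log2 folds between -3.52 and -3.15. In the glutamate receptor list, 6 of 15 genes rose and 5 fell; Shisa9, an AMPA receptor auxiliary subunit, fell furthest (-3.09 ± 0.18), from 6.48 to 10.9 CPM to 0.567 to 1.49 CPM.

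Markers of other cell types were low or moved in both directions. Of 18 microglia and macrophage markers 14 were too low to test, among them Cx3cr1, Tmem119, Csf1r and Aif1; 2 of 4 tested rose, P2ry12 among them (median 0.28), and the list summed to 29.5 to 35.2 CPM treated and 25.9 to 30.9 CPM untreated; lymphocyte markers, Ifng among them, summed to at most 0.126 CPM and none could be tested. Astrocyte markers summed to 460 to 555 CPM treated and 654 to 730 CPM untreated, with 3 of 9 tested genes rising (Slc1a3, Slc1a2 and Sox9) and 2 falling. Neuron markers summed lower in every treated library, at 1780 to 1920 CPM against 2080 to 2250 CPM untreated. Of 13 tested, 8 rose, Tubb3 (1.40 ± 0.09) and Elavl4 (1.58 ± 0.06) among them. The 3 that fell were Syt1, Map2 and Elavl3, while Snap25 and Syp did not pass the threshold. The lowest log2 fold of the list was -1.39. Endothelial, mural and fibroblast markers summed to 10.2 to 13.7 CPM and 2.59 to 3.73 CPM, with Acta2 and Lum rising and Kdr and Pdgfrb falling, while Pecam1, Cldn5 and Cdh5 were too low to test. Acta2, smooth muscle actin, rose by 5.94 ± 0.26 from at most 0.327 CPM, while Kdr, an endothelial receptor, fell by 1.94 ± 0.21. The part of these cells in the results was not tested. Xist, which is expressed from an inactive X chromosome, stood at 363 to 682 CPM in Nrf2 -/- replicates 1 and 2 of each arm and at 0.12 to 5.4 CPM in the other 6 libraries, all 4 wild-type ones among them, and 8522 of the 8612 calls stood in the same direction with its level as a term.

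How the 24 h response differed from those at 8 h and 48 h was tested as the difference between responses, each hour having its own 5 treated and 5 untreated libraries. Against 8 h, 5239 of 15405 genes (34%) differed, 2737 higher (17.8%) and 2502 lower (16.2%). Against 48 h, 6330 of 15540 genes (40.7%) differed, with the 48 h response higher in 3381 (21.8%) and lower in 2949 (19%). The 24 h libraries enter both of these comparisons. At 8 h, the genotype tag of the second treated and the second untreated Nrf2 -/- library reads wild type against their titles; titles were followed.
Cell cycle and lipid synthesis genes differed from both other hours. For cell cycle genes, 25 of 26 had a higher response at 24 h than at 8 h and 25 of 26 a lower one at 48 h than at 24 h, with a median log2 fold of 0.10 at 8 h, 1.64 at 24 h and 0.70 at 48 h (all from 1 model of all 50 libraries). For cholesterol genes, 23 of 23 had a lower response at 24 h than at 8 h and 21 of 23 a higher one at 48 h, with medians of -0.29, -1.56 and -0.26. Fatty acid genes did likewise in 11 of 12 and 10 of 12. All-gene shares in the same directions were 17.8%, 19%, 16.2% and 21.8%.

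**Figure D4:**
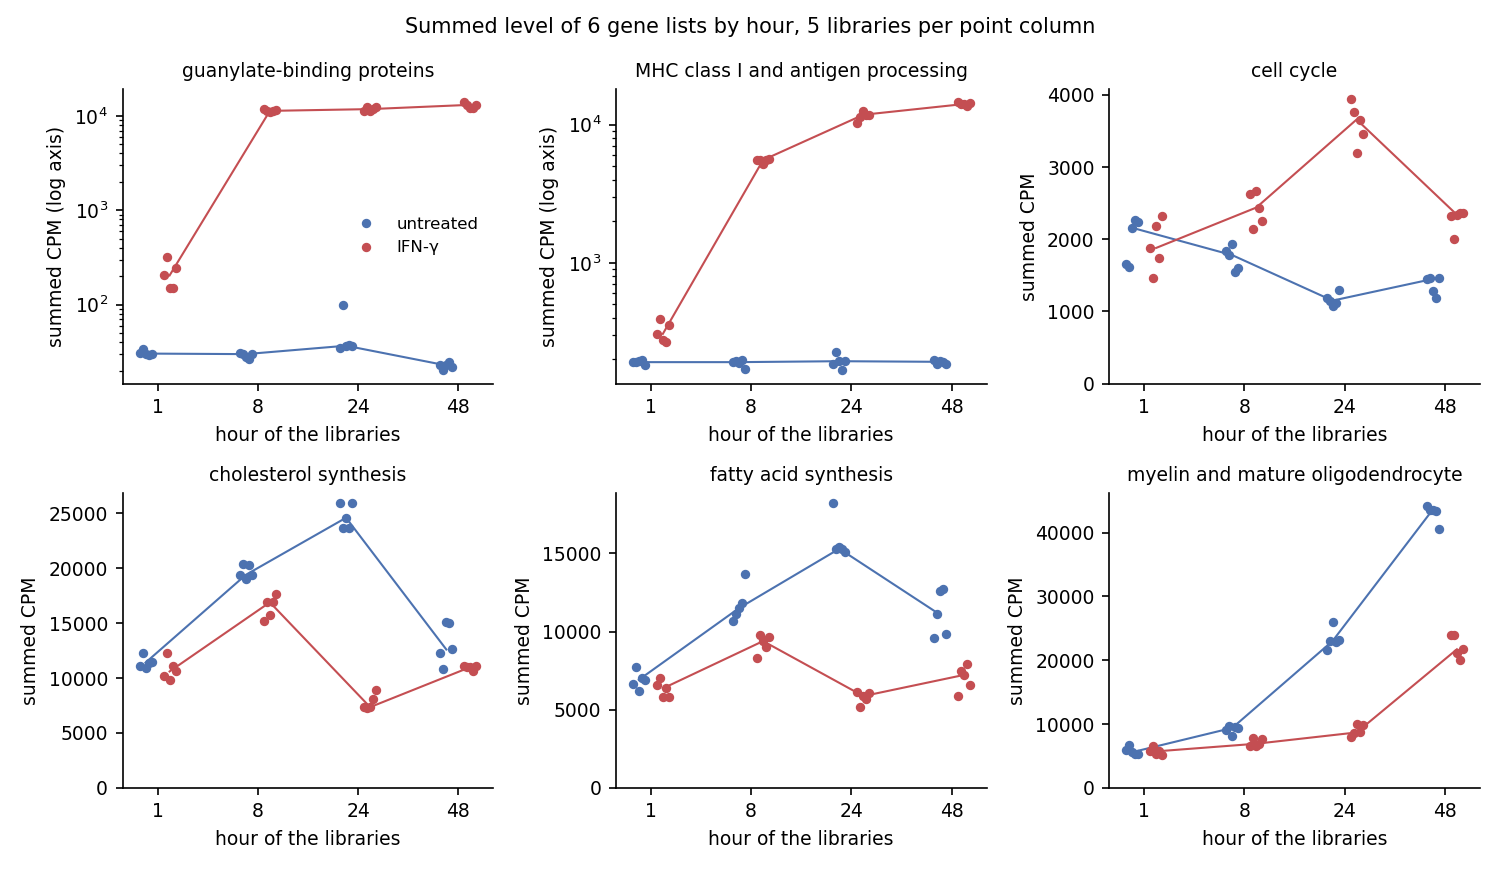
Summed level of 6 gene lists by hour, in CPM (y axis; log axis where labelled), with 1 point per library, 5 libraries per arm and hour, and lines joining the medians of an arm. Cholesterol genes of untreated cells are highest at 24 h (23700 to 25900 CPM) and those of treated cells lowest at that hour (7270 to 8870 CPM), and myelin genes of untreated cells stand at 21600 to 26000 CPM at 24 h.

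Levels in both arms stood at different values by hour. Summed cell cycle message in treated cells was 2140 to 2670 CPM at 8 h, 3190 to 3940 CPM at 24 h and 2010 to 2360 CPM at 48 h, and in untreated cells 1540 to 1940 CPM, 1080 to 1300 CPM and 1180 to 1460 CPM. Summed cholesterol message in untreated cells was 19000 to 20400 CPM at 8 h, 23700 to 25900 CPM at 24 h and 10800 to 15100 CPM at 48 h. In treated cells it was 15200 to 17700 CPM, 7270 to 8870 CPM and 10600 to 11100 CPM, with the arms overlapping at 48 h and far apart at 24 h. Changes between hours within an arm were not tested.
Hmgcs1 shows this in 1 gene: its medians in untreated cells were 6197 CPM at 8 h, 8340 CPM at 24 h and 3887 CPM at 48 h, and in treated cells 5801, 2285 and 3392 CPM. Its response was lower at 24 h than at 8 h by -1.64 ± 0.11 and higher at 48 h than at 24 h by 1.62 ± 0.11 (edgeR adjusted p = 8.22e-10 and 2.83e-09). Top2a had a response higher at 24 h than at 8 h by 1.44 ± 0.12 and lower at 48 h by -0.73 ± 0.09. Pdgfra differed in the same directions, by 0.86 ± 0.14 and -0.92 ± 0.13.
Myelin genes moved in both directions between 24 h and 48 h. Their responses were lower at 24 h than at 8 h in 17 of 27 genes, but at 48 h 11 of 27 were higher and 8 lower than at 24 h. Over all tested genes these shares were 16.2%, 21.8% and 19%. List medians were -0.55, -1 and -0.92 at 8, 24 and 48 h. Single genes differed: Mog had medians of 53.2 CPM untreated and 8.15 CPM treated at 24 h, and 51.1 and 37.8 CPM at 48 h (difference of responses 2.51 ± 0.16, edgeR adjusted p = 1.45e-09). Mbp had 1906 and 375 CPM at 24 h, and 6843 and 2353 CPM at 48 h (0.75 ± 0.16, edgeR adjusted p = 0.00148). In Mbp and in Mog every treated library at 24 h lay below every untreated one.

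**Figure D5:**
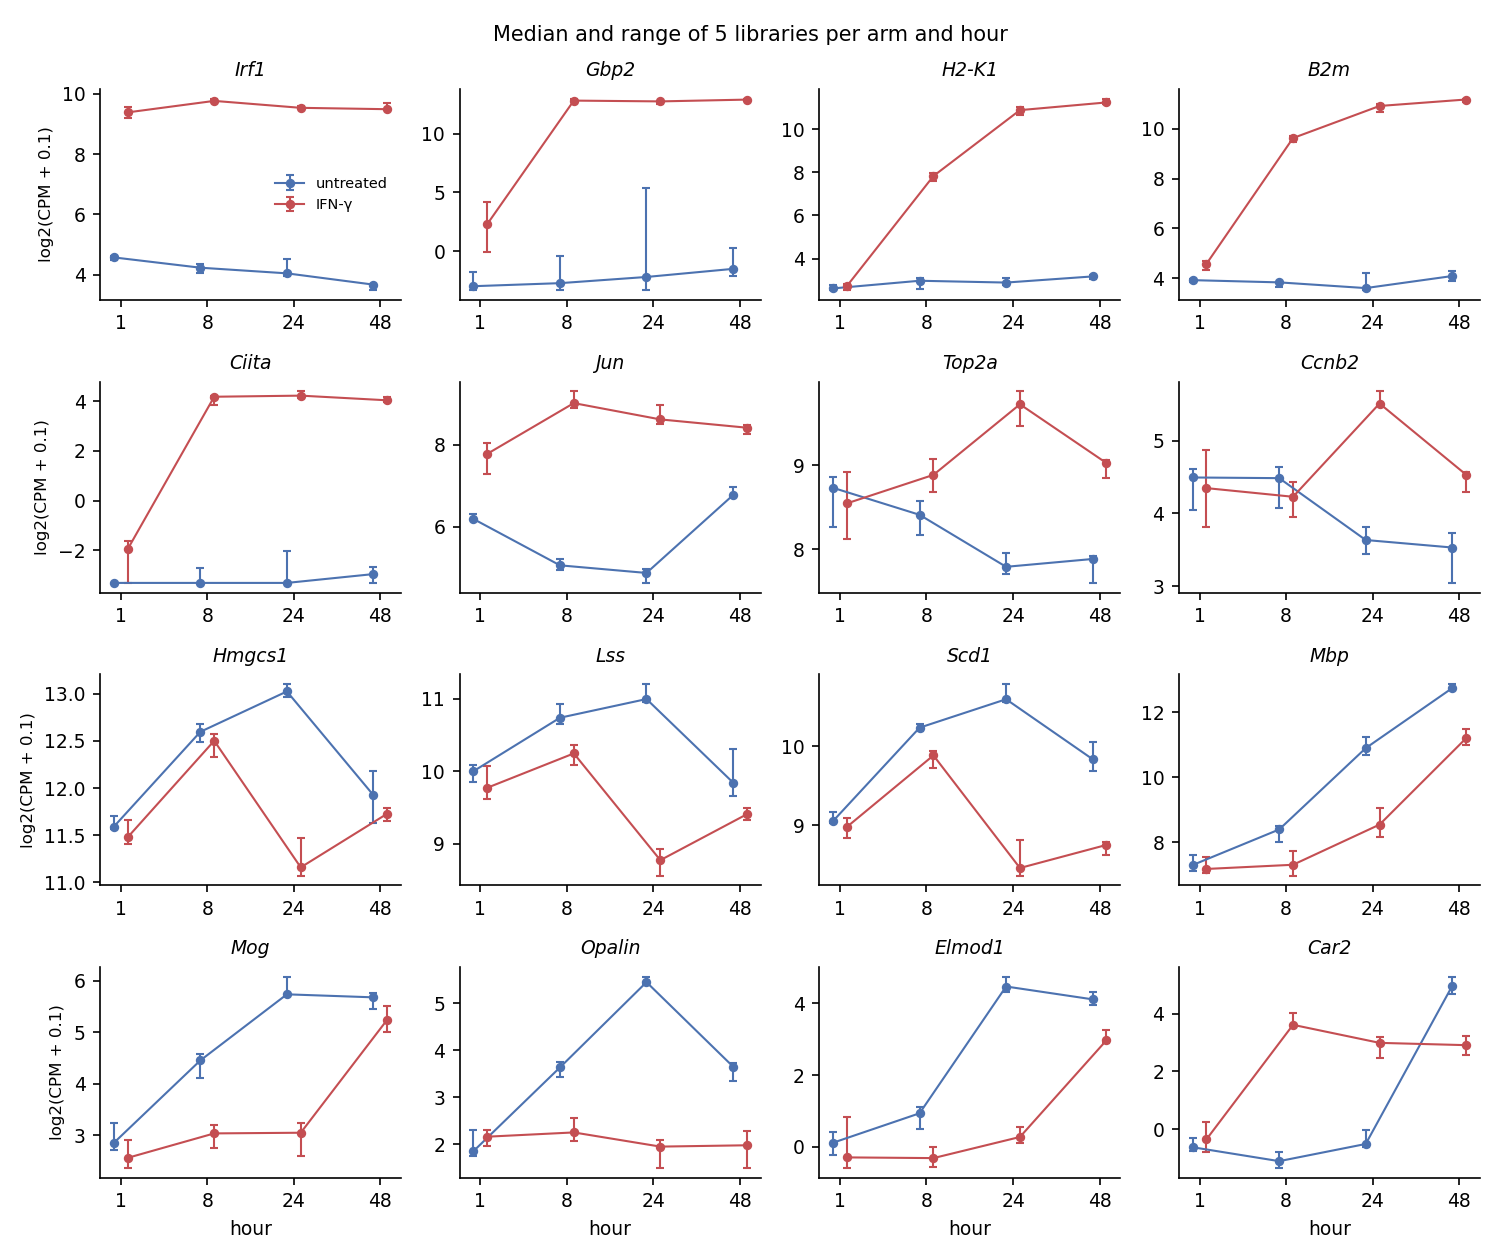
Median and range (bars) of 5 libraries per arm at 1, 8, 24 and 48 h, as log2(CPM + 0.1) on the y axis, 1 panel per gene. Lines join the medians; treated H2-K1 lies at 192 to 248 CPM at 8 h and 1631 to 2133 CPM at 24 h, the arms of Hmgcs1 are apart at 24 h, and the long bar of untreated Gbp2 at 24 h reaches to Nrf2 -/- replicate 2.

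Of 21 class I genes, 8 had a higher response at 24 h than at 8 h and 1 a lower one. Over all tested genes these shares were 17.8% and 16.2%. H2-K1 stood at 192 to 248 CPM in treated libraries at 8 h, 1631 to 2133 CPM at 24 h and 2298 to 2765 CPM at 48 h, with untreated libraries between 5.96 and 9.40 CPM at these hours; its response was higher at 24 h than at 8 h by 3.11 ± 0.13 (edgeR adjusted p = 6.75e-12) and did not pass the threshold between 24 h and 48 h (0.15 ± 0.10). H2-Q7 and H2-M3, nonclassical class I genes, were higher by 3.67 ± 0.29 and 4.08 ± 0.33, and H2-D1 by 2.64 ± 0.12. B2m gained 1.41 ± 0.13.
Class II chains also had a higher response at 24 h than at 8 h, H2-Eb1 by 2.67 ± 0.40 and H2-Ab1 by 2.05 ± 0.20. Their responses at 48 h were higher than at 24 h, by 1.61 ± 0.44 and 1.37 ± 0.27. The treated sum of the class II list was 88.8 to 104 CPM at 24 h and 98.2 to 116 CPM at 48 h. Its untreated sum was 8.88 to 11.5 CPM and 7.12 to 9.9 CPM. Untreated H2-Eb1 was near silence at 24 h, so its differences rest on few untreated counts. Irf1 did not pass the threshold between 8 h and 24 h (-0.09 ± 0.10, edgeR adjusted p = 0.552), and Nlrc5 had a lower response at 24 h than at 8 h (-1.48 ± 0.20), with an untreated level of 2.59 to 3.39 CPM at 8 h and 4.77 to 10.7 CPM at 24 h.
Some genes had a much smaller or opposite response at 24 h. Vgf, a secreted neuropeptide precursor, had treated medians of 8.11 CPM at 8 h and 1.11 CPM at 24 h, with untreated medians of 0.433 and 0.624 CPM (difference -3.25 ± 0.25). Prr5l, a partner of the kinase mTOR, differed by -4.04 ± 0.24 and Sema3e, a guidance cue, by -3.15 ± 0.17. In Sema3e the response turned over, from 13.6 to 15.6 CPM treated against 2.21 to 3.15 CPM untreated at 8 h to 7.41 to 11 CPM against 13.7 to 18.2 CPM at 24 h.
Between 24 h and 48 h, Car2 had the largest drop of the response among the genes named by rule. Car2 stood at 5.48 to 9.13 CPM treated at 24 h and 5.86 to 9.18 CPM at 48 h, whereas its untreated level was 0.551 to 0.891 CPM at 24 h and 25.3 to 38.6 CPM at 48 h (-5.62 ± 0.18, edgeR adjusted p = 3.01e-13). Abca1, a cholesterol exporter, had untreated levels of 1.61 to 3.01 CPM and 53.4 to 80.2 CPM at these hours and treated levels of 7.51 to 12.1 CPM and 13.8 to 22.7 CPM (-4.00 ± 0.26). The largest gains included Elmod1 (3.31 ± 0.13), which was among the steepest falls at 24 h and had a treated level of 7.33 to 9.53 CPM at 48 h. Chaperones of the endoplasmic reticulum had a higher response at 48 h than at 24 h in 15 of 19 genes (median 0.49), Hspa5 by 0.70 ± 0.08. Over all tested genes the share was 21.8%. The summed level of the chaperone list in treated cells was 4820 to 5340 CPM at 24 h and 4770 to 5000 CPM at 48 h. In untreated cells it was 5550 to 5960 CPM at 24 h and 3610 to 3950 CPM at 48 h.

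Whether the genotypes differed in the response at 24 h was tested with an interaction term. It called 0 of 14865 genes (0%) in edgeR and 0 in DESeq2, with 911 genes (6.13%) at an unadjusted p under 0.05 in edgeR, where evenly spread p-values would put 743. A p that misses the threshold does not show that the genotypes responded alike. All libraries with high Xist were Nrf2 -/-, so the wild-type libraries differ from them in Xist as well as genotype; with Xist level as a term the interaction called 0.
Leaving out wild-type treated replicate 2 gave 45 genes past the threshold, all with a lower response in Nrf2 -/- cells, and each other omission of a library gave 0. Fold values in wild-type and in Nrf2 -/- libraries for genes expressed in both arms were 5.61 and 5.33 for Irf1, 8.23 and 7.89 for H2-K1, -1.81 and -1.75 for Hmgcs1, and -2.25 and -2.26 for Mbp. Olig1 had 1.30 and 0.87. The untreated library with interferon transcripts belongs to the Nrf2 -/- libraries. It had the highest untreated level of Irf1, so it enters the Nrf2 -/- fold of that gene, and its part in the difference was not tested. Genes silent in untreated cells are affected by it too, and their folds are not compared between genotypes here.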

How the data were processed

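Bulk RNA-seq of total RNA was analysed in 10 libraries at 24 h, with the IFN-γ and untreated libraries of 1 h, 8 h and 48 h (10 at each hour) for comparison; those of 1 h enter only the model of all 50 libraries, which gives the list medians by hour, and the plots by hour. The deposited gene table holds raw counts and the deposited isoform table estimated counts; per the submitters' processing notes the authors used STAR, featureCounts, kallisto and edgeR, with versions, build, annotation and strand setting not given in the sources used here. Of 39056 gene entries, 12061 had no count, and 38872 matched GENCODE names.

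Counts were tested with edgeR 4.0.16 (R 4.3.3, limma 3.58.1): TMM factors, filterByExpr (minimum count 10, minimum total 15), robust quasi-likelihood fits with genotype as a term, and Benjamini-Hochberg adjustment over all tested genes at 0.05. Genotype followed the titles. Alternatives were DESeq2 1.42.0, its size factors, no filter, kallisto estimated counts rounded and summed per gene, all 50 libraries in 1 model, each genotype alone, Xist as a covariate and each library left out. The fitting scripts were tested on simulated data. Depth was 34.4 to 54.7 M counts. The members and gene lists were chosen with earlier results of these data known. Named genes are the 12 highest and 12 lowest called folds without overlap (at least 5 CPM in the higher arm, over 3 counts in the lower arm), 8 more with at most 3 counts in the lower arm, a set panel, up to 4 called genes per list and 6 in each direction of each other comparison; genes outside this rule are named only as list members. Some genes of the lists are not reported here by name.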

Additional observations from a re-analysis of the deposited data

Results flagged for a closer look

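In 7 of 66 list sums, each over the 5 libraries of 1 arm at 24 h, a single library lay apart from the other 4 (gap over range above 0.71, Dixon's test); chance flags about 1 in 20. The same untreated library, Nrf2 -/- replicate 2, had the highest sums of guanylate-binding proteins (99.1 CPM) and of immunity-related GTPases (121 CPM). Among untreated libraries, wild-type replicate 2 had the lowest sum of caspase and death genes (739 CPM). Nrf2 -/- replicate 3 had an NF-kB feedback sum of 101 CPM and Nrf2 -/- replicate 1 a fatty acid synthesis sum of 18200 CPM, both the highest untreated values. Among treated libraries, wild-type replicate 1 had the highest sum of immediate early genes (678 CPM) and wild-type replicate 2 the lowest sum of neuron markers (1780 CPM).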

How the results depend on the processing

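No paired analysis was possible from the labels alone because the labels carry no replicate numbers that the arms share. The numbers used here follow accession order and only name libraries. In that order, however, the treated and the untreated library of a number stand side by side, and Xist was high in the same numbers of both arms. Whether pairing libraries by this order would change the calls was not tested. Leaving out each library in turn gave 8041 to 8552 genes past the threshold for the 24 h response (4080 to 4503 higher, 3936 to 4104 lower), and 0 to 45 for the genotype difference (lower 0 to 45, higher 0), the 45 without wild-type treated replicate 2; the cause was not tested. With no filter on low counts, the genotype difference had 3 genes, all lower. For the difference from 8 h the range was 4584 to 5460 (2373 to 2853 higher, 2208 to 2607 lower), and for that from 48 h 5450 to 6892 (2717 to 3616 higher, 2617 to 3276 lower). No gene named by rule changed direction past the threshold in the alternatives run. Over all called genes, 8476 of the 8518 tested with kallisto counts kept their direction, and 8397 of 8402 did in wild-type libraries alone. Rises made up 51.7% of calls in the main fit, 49.4% with kallisto counts and 49.3% with all 50 libraries in 1 model. Among 217 named genes, wild-type libraries alone lost 12 calls and Nrf2 -/- libraries alone 6, with fewer samples. Sox10, Fos and Cryab were among the 12, with wild-type log2 folds of -0.16, -0.07 and 1.14. Estimated counts from kallisto lost 5 calls, Casp8 among them (adjusted p = 0.0725). P2ry12 lost its call when any of 4 single libraries was left out (adjusted p 0.0621 to 0.0864). DESeq2 gave no adjusted p for 11 of the named genes, Gbp2 and Igtp among them.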
